A study of Mus musculus with 6 samples.

Results

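The genes that build and prepare the compact chromatin of sperm were followed in testes lacking SEL1L in male germ cells. They are 9 of the 55536 genes counted: the protamine genes Prm1, Prm2 and Prm3, the transition protein genes Tnp1 and Tnp2, the linker histone genes H1fnt, Hils1 and Hist1h1t, and the core histone gene Hist1h2ba. The 9 symbols were listed by name and matched to the Ensembl identifiers of the count tables through GENCODE mouse release 21, and each matched 1 identifier. Testes came from 3 KOStra8 and 3 HETStra8 littermates aged 7 weeks, with 1 poly(A)+ library per mouse. KOStra8 mice have a floxed and a deleted Sel1L allele (Sel1L flox/Δ) and Stra8-Cre. The HETStra8 mice of these libraries are described in the deposited record as Sel1L flox/Δ, with no Stra8-Cre named, whereas the paper pools Sel1L flox/+;Stra8-Cre and Sel1L flox/Δ animals under that name. The genotype of each HETStra8 mouse is not given in the sources used here, so whether the controls carry Cre is not known. The deleted allele is shared by KOStra8 mice and by any Sel1L flox/Δ control. By the paper's account of its stainings, the Stra8 promoter drives Cre in male germ cells but spermatogonia and Sertoli cells retain SEL1L.

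During spermiogenesis most histones of the haploid genome are replaced, first by transition proteins and then by protamines. Testis-specific histones take part earlier: Hist1h2ba encodes TH2B, which is incorporated from the spermatocyte stages, and Hist1h1t encodes H1t, the linker histone of spermatocytes. H1fnt encodes H1T2, found at the apical pole of spermatid nuclei, and Hils1 encodes a linker histone-like protein of elongating spermatids. Prm1 and Prm2 encode the arginine-rich proteins that pack sperm DNA, whereas Prm3 encodes an acidic protein outside the nucleus despite its name. SEL1L is the adaptor of the HRD1 ubiquitin ligase in ER-associated degradation. Messenger RNAs of protamines and transition proteins are made in round spermatids and stored for translation at later steps, so their RNA level and their protein level can differ.

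A run of 4 of the genes lies in 1 cluster on chromosome 16, between positions 10787936 and 10805839 of GRCm38, in the order Tnp2, Prm3, Prm2 and Prm1, all on the minus strand. Prm1 (ENSMUSG00000022501) spans 10796326 to 10805839 and Prm2 (ENSMUSG00000038015) spans 10791380 to 10796134. Prm3 (ENSMUSG00000050058) lies at 10790505 to 10790914 and Tnp2 (ENSMUSG00000043050) at 10787936 to 10788660. Tnp1 (ENSMUSG00000026182) is alone on chromosome 1, at 73015074 to 73015909 on the minus strand. H1fnt (ENSMUSG00000048077) is on chromosome 15 at 98255986 to 98257293, minus strand, and Hils1 (ENSMUSG00000038994) on chromosome 11 at 94967593 to 94968456, plus strand. Both remaining genes are on chromosome 13, Hist1h1t (ENSMUSG00000036211) at 23695814 to 23696725, plus strand, and Hist1h2ba (ENSMUSG00000050799) at 23933773 to 23934156, minus strand. Their longest annotated transcripts are short, from 384 bases for Hist1h2ba to 1308 bases for H1fnt, against a median of 2673 bases over all tested genes. In GC content they ran from 49.2% for Tnp1 to 58.8% for Prm3, all above the median of 48.8% of the tested genes. The annotated Hist1h2ba transcript of 384 bases holds 381 coding bases, so reads from any untranslated part of its RNA would not be counted on it.

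The promoters of the 4 most abundant genes are shown with the matches found in them to a pair of elements classically described for spermatid genes, the cAMP response element bound by CREM and the TATA box. Each line gives the 120 bases upstream of the RefSeq start (GRCm38.p6, minus strand, 5′ to 3′), at chr16:10796824-10796943 for Prm1, chr16:10792106-10792225 for Prm2, chr1:73015900-73016019 for Tnp1 and chr16:10788656-10788775 for Tnp2. Prm1 and Prm2 each have 2 annotated transcripts in GENCODE. Their RefSeq starts, 10796823 and 10792105, lie well inside the gene spans given above, so these windows are not upstream of the whole spans. Capitals mark matches to TGANNTCA, a relaxed form of the palindromic element TGACGTCA, or to TATAA, each searched on both strands.
Prm1: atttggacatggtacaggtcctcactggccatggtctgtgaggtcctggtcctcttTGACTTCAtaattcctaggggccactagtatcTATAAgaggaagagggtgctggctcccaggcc
Prm2: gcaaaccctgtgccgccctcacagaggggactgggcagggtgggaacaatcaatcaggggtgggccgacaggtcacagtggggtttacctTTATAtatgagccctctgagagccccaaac
Tnp1: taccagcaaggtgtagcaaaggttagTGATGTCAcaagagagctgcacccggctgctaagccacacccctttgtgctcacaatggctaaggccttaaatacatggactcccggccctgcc
Tnp2: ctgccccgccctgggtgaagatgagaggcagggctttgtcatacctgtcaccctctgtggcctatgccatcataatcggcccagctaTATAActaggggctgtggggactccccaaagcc

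All 9 genes matched an entry of the RefSeq promoter table, and none of the 9 windows held the full palindrome TGACGTCA, which was in 1.24% of the 32851 promoters of the table. The relaxed form TGANNTCA, which also takes in the palindrome, was in 7.14% of those promoters and TATAA in 11.8%. Prm1 held both, TGACTTCA starting at position -64 and TATAA at -32 from the start. Tnp1 had TGATGTCA at -94 and no TATAA, while Prm2 had the reverse complement TTATA at -30 and Tnp2 had TATAA at -33. Prm3 held TGAGGTCA at -60. TATAA was found at -41 in Hist1h1t and at -94 in Hist1h2ba, and the windows of H1fnt and Hils1 held none of these letters. The start used for Hist1h2ba, 23934156, is the 5′ end of the annotated transcript of 384 bases with 381 coding bases. Its window may therefore hold untranslated sequence, and -94 may not be the distance from the start of its RNA. A match describes the letters in the window and was not tested for binding.

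The libraries held 28875108 to 36526695 counts, and 21465 genes with enough counts were compared, all 9 genes among them. Levels are given as CPM, the usual depth-scaled counts, after TMM scaling, a correction for library composition whose factors lay close to 1 (0.990 to 1.01). Tests are edgeR's two-sided quasi-likelihood tests with p-values adjusted by Benjamini-Hochberg over all 21465 genes, and a gene was called at the study's cutoffs, a fold of 2 and an adjusted p below 0.01. Across all genes the log2 fold change ran with GC content (Spearman rho -0.460 across 21457 genes, which are not independent replicates), and rho was -0.0106 when offsets fitted to GC content and transcript length were used. Log2 fold changes with these offsets are therefore given too. The offsets were fitted to these same libraries, so they would also take out a genotype difference that runs with GC content or length. Sel1l, the targeted gene, was counted 1549, 1603 and 1413 times in the HETStra8 libraries, against 846, 636 and 741 times in the KOStra8 libraries. Its level was 46.4 ± 3.59 CPM in HETStra8 and 22.2 ± 1.97 CPM in KOStra8 (SD, n = 3), a log2 difference of -1.07 (SE 0.104, adjusted p = 0.00061, edgeR), which matches the labels.

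None of the 9 genes passed a test for a difference between the genotypes. At the study's cutoffs 0 of 9 were called, where only 0.00932% of all tested genes were (2 of 21465), so this count alone does not set them apart from other genes. None of the 9 had an unadjusted p below 0.05 in edgeR in either direction, where 7.13% of all genes did so toward higher and 5.12% toward lower levels in KOStra8, and DESeq2 and limma-voom also gave 0 of 9 by both measures. The values of the 3 KOStra8 and the 3 HETStra8 mice overlapped for 9 of 9 genes, where 17.8% of all tested genes had groups that did not overlap. Log2 fold changes of KOStra8 over HETStra8 ran from -0.17 to 0.03, with a median of -0.07 against -0.0094 over all genes. The sign was negative for 8 of 9 genes, but for only 4 of 9 with the GC and length offsets, where the median was 0.02 against -0.0073 over all genes. Whether fewer spermatids or less RNA per spermatid lay behind a level cannot be told apart in whole testis.

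**Figure D1:**
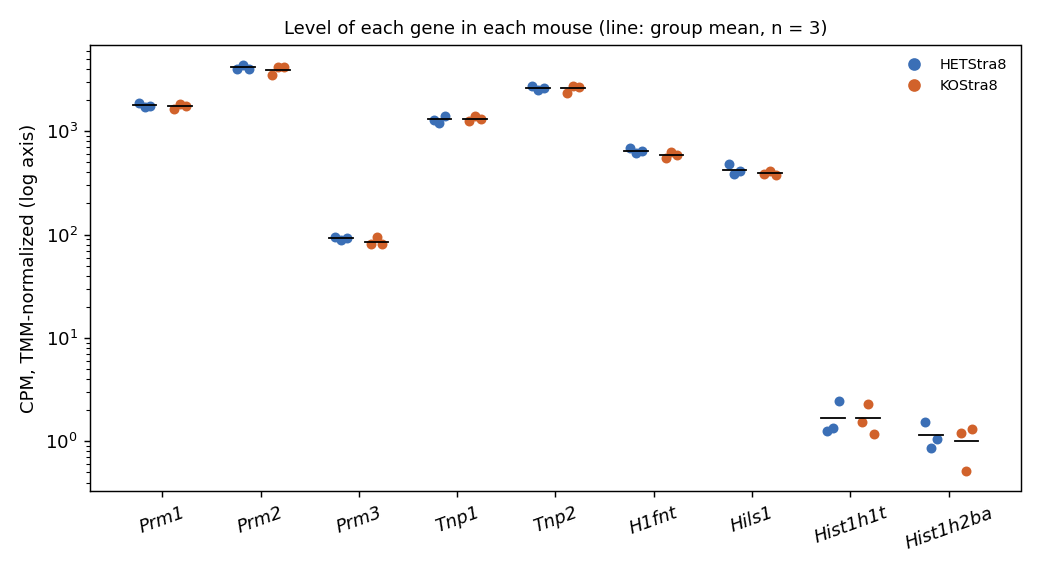
Level of each of the 9 genes in each of the 6 mice, in CPM on a log axis, with HETStra8 in blue, KOStra8 in orange and a line at each group's mean (n = 3). The points of both genotypes overlap for every gene, and the genes run from about 1 CPM (Hist1h2ba) to 4370 CPM (Prm2).

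Prm2, the protamine made as a longer precursor that is later cleaved, was the most abundant of the 9 and ranked 2 among all genes by mean CPM. Taking the mice in the order 1 to 3, as throughout, HETStra8 testes had 4017, 4370.0 and 4009 CPM, and KOStra8 testes had 3479, 4199 and 4148 CPM. KOStra8 mouse 1 was below all others, and the other KOStra8 mice lay within the HETStra8 range. The log2 fold change was -0.07 (SE 0.0740, adjusted p = 0.745, edgeR), with a 95% confidence interval from -14.5% to 6.47% for KOStra8 relative to HETStra8. With the GC and length offsets the value turned to 0.02.

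Prm1, the protamine that needs no processing, ranked 18 among all genes. Levels were 1859.9, 1724 and 1745 CPM in HETStra8 mice and 1644, 1833 and 1753 CPM in KOStra8 mice. The lowest mouse was again KOStra8 mouse 1, and HETStra8 mouse 1 was the highest. On the log2 scale KOStra8 differed by -0.03 (SE 0.0638, adjusted p = 0.896, edgeR), and its interval ran from -10.7% to 7.89%. The offsets turned this value to 0.04. A pair of lowly counted genes on the opposite strand overlaps the annotated span of Prm1, the antisense gene Gm46563 with 92 to 161 counts and the pseudogene Gm10343 with 127 to 202. Both lie upstream of the RefSeq start of Prm1 at 10796823, so they do not overlap a transcript made from that start.

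Prm3 was far less abundant than its neighbours in the cluster. It had 95.6, 88.1 and 93.3 CPM in HETStra8 mice against 80.8, 94.2 and 81.6 CPM in KOStra8 mice. KOStra8 mice 1 and 3 were below every HETStra8 mouse, and KOStra8 mouse 2 was above all but HETStra8 mouse 1. The difference was -0.11 on the log2 scale (SE 0.0847, adjusted p = 0.622, edgeR), with an interval from -18.3% to 5.02%, and -0.03 with the GC and length offsets.

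Tnp2, the transition protein with zinc-binding residues, ranked 7 among all genes. In HETStra8 mice it stood at 2758, 2480.5 and 2586 CPM, and in KOStra8 mice at 2347, 2755 and 2687 CPM. The lowest value was that of KOStra8 mouse 1, and the highest values of the groups, 2758 and 2755 CPM, were nearly equal. The log2 fold change of -0.0067 (SE 0.0708, adjusted p = 0.981, edgeR) had an interval from -10.4% to 10.6%, and with the offsets it was 0.09.

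Tnp1, the smaller and very basic transition protein, was the exception among the 9 in having a positive value on the log2 scale, 0.03 (SE 0.0734, adjusted p = 0.915, edgeR). Its level was 1293, 1198 and 1412 CPM in HETStra8 mice and 1247, 1413 and 1313 CPM in KOStra8 mice. The groups covered almost the same range, and the interval ran from -8.71% to 13.5%. Its value with the offsets was 0.02. The antisense gene 1700027A15Rik overlaps the whole of Tnp1 and had 4615 to 6174 counts, a mean of 158 CPM. The strand setting of the counting is not given in the sources used here, and how far reads of this pair were separated was not tested.

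H1fnt had the smallest p-value of the 9. Its level was 687, 611 and 646 CPM in HETStra8 mice and 550.5, 633 and 585 CPM in KOStra8 mice. KOStra8 mice 1 and 3 lay below every HETStra8 mouse, and KOStra8 mouse 2 lay among them. The log2 fold change was -0.14 (SE 0.0726, unadjusted p = 0.0802, adjusted p = 0.457, edgeR), with an interval from -18.3% to 1.31%. The GC and length offsets gave -0.0021, and leaving out KOStra8 mouse 2 gave -0.19 with an unadjusted p = 0.0414 in edgeR (adjusted p between 0.367 and 0.803 over the fits that leave out 1 mouse).

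Hils1 gave 478, 384 and 414 CPM in HETStra8 mice and 389.5, 414 and 373 CPM in KOStra8 mice. HETStra8 mouse 1 stood above the other 5 mice, which lay between 373 and 414 CPM. The difference of -0.12 on the log2 scale (SE 0.0827, adjusted p = 0.589, edgeR) had an interval from -18.4% to 4.28%, and leaving out HETStra8 mouse 1 gave -0.02. It was -0.04 with the offsets. Hils1 lies inside Sgca, a muscle sarcoglycan gene on the opposite strand, on which 311 to 470 counts fell.

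The other pair of histone genes was barely detected. Hist1h1t had 40, 45 and 81 counts in HETStra8 mice and 54, 66 and 43 counts in KOStra8 mice, which is 1.27 to 2.43 CPM and 1.18 to 2.28 CPM. Hist1h2ba had 48, 29 and 35 counts in HETStra8 mice and 42, 15 and 48 counts in KOStra8 mice, or 0.862 to 1.53 CPM and 0.518 to 1.31 CPM. For both genes the highest and the lowest mice of the groups were interleaved. Their log2 fold changes were -0.02 (SE 0.353) and -0.17 (SE 0.412), with adjusted p = 0.989 and 0.901 (edgeR), and 0.02 and -0.05 with the offsets. The intervals ran from -41.6% to 66.7% for Hist1h1t and from -51.6% to 64.2% for Hist1h2ba, and changes within these bounds are not excluded by these data.

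**Figure D2:**
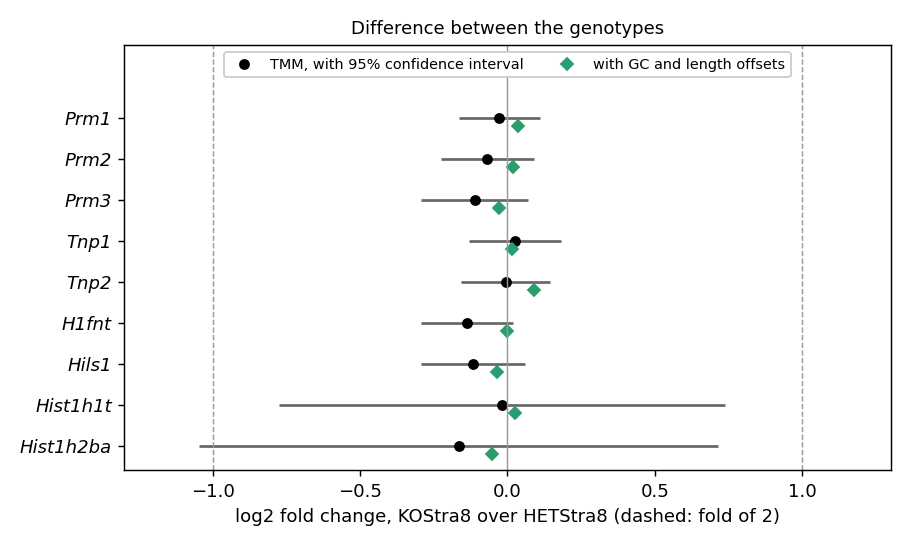
Log2 fold change of KOStra8 over HETStra8 for each gene, as black points with 95% confidence intervals from the edgeR fit, and as green diamonds with the GC and length offsets. The intervals of all 9 genes include 0, those of the 7 abundant genes stay well inside the dashed lines at a fold of 2, and those of Hist1h1t and Hist1h2ba are several times wider.

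Most other clustered histone genes were counted even more rarely. Of 65 other protein-coding genes of the Hist1 to Hist4 clusters, 56 averaged under 1 CPM, 3 were above 10 CPM, and the median was 0.0743 CPM. Hist1h1t was above 57 of them and Hist1h2ba above 56. Hist1h2aa, which encodes TH2A, the partner of TH2B, had 43, 53 and 42 counts in HETStra8 mice and 61, 45 and 40 in KOStra8 mice. The clustered genes with the highest levels were Hist1h2bp at 28.3 CPM and Hist2h2be at 22.4 CPM. By contrast, the replacement histone genes H3f3b and H3f3a, which lie outside the clusters, had means of 384 and 237 CPM. Most clustered histone mRNAs end in a stem-loop in place of a poly(A) tail, and these libraries were made from poly(A)+ RNA; the part of this in the low counts was not tested.

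Together the 9 genes took about 1% of the counts of the testis libraries. Their summed share was 1.11%, 1.08% and 1.09% in the HETStra8 libraries, against 0.981%, 1.14% and 1.09% in the KOStra8 libraries. KOStra8 mouse 1 had the lowest share and KOStra8 mouse 2 the highest. The means were 1.09% ± 0.0136 and 1.07% ± 0.0803 (SD, n = 3), a difference of -0.0222 percentage points that was below the SD within KOStra8 and above that within HETStra8, and that became 0.0224 points without KOStra8 mouse 1. Protamines made up 0.586% to 0.615% of the counts in HETStra8 and 0.524% to 0.614% in KOStra8. Transition proteins took 0.366% to 0.401% and 0.362% to 0.418%, and the linker histones 0.0990% to 0.115% and 0.0949% to 0.105%. In each class the ranges of the genotypes overlapped.

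**Figure D3:**
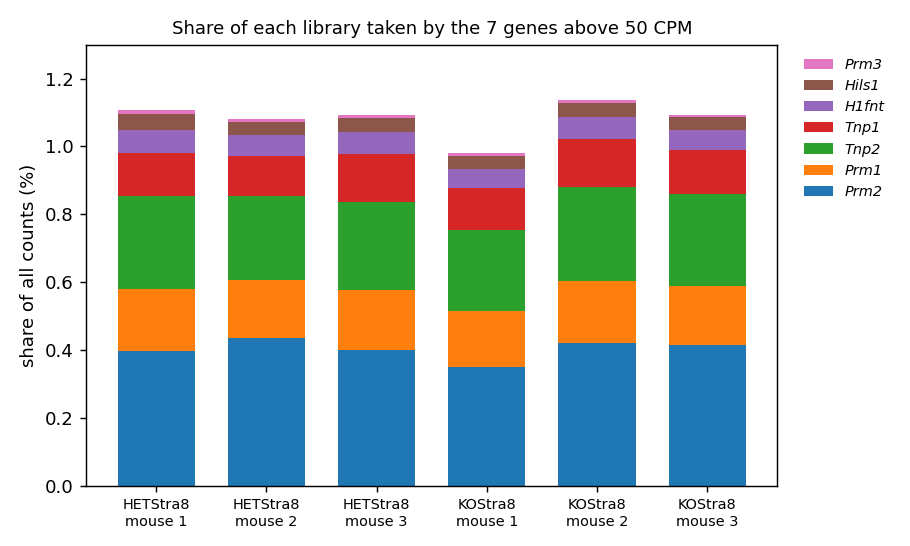
Share of all counts, in percent, taken in each of the 6 libraries by the 7 genes with a mean above 50 CPM, stacked by gene. The stacks reach 0.981% in KOStra8 mouse 1 and 1.08% to 1.14% in the other 5 mice, and Prm2 is the largest part of each.

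Per length of transcript the order of the levels was Prm2, Tnp2, Prm1, Tnp1, then H1fnt and Hils1, then Prm3, and last Hist1h2ba and Hist1h1t. On the RPKM scale, CPM divided by the longest transcript in kilobases, Prm2 averaged 5989.6, Tnp2 4697, Prm1 3752 and Tnp1 3004 over the 6 mice. Each of these 4 genes exceeded the next in 6 of 6 mice with no overlap of their ranges, by 1.28 times for Prm2 over Tnp2 and by 1.25 times at both following steps. Tnp1 stood 6.37 times above H1fnt. H1fnt and Hils1 both averaged 473 RPKM, and their ranges overlapped, with H1fnt the higher in 4 of 6 mice. Prm3 averaged 217 RPKM. Hist1h2ba and Hist1h1t averaged 2.81 and 1.84 RPKM with overlapping ranges, the former higher in 5 of 6 mice. These values depend on the annotated transcript length, which for Hist1h2ba holds little more than coding sequence. Prm1 and Prm2 each have 2 annotated transcripts, and whether the longest is the main form in these testes was not tested. The order Prm2, Tnp2, Prm1 and Tnp1 is also that of their lengths, 674, 554, 469 and 437 bases. Lengths were not adjusted for fragment size, which matters for transcripts this short. A length effect common to all 6 mice in the steps of 1.25 to 1.28 times was not tested.

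Ratios between the counts of the genes compare them within each testis. They do not depend on library totals or TMM factors, but they carry any GC trend that differs between libraries. These are ratios of RNA counts not divided by transcript length, so they do not give the proportions of transcripts or of proteins. The ratio of Prm1 to Prm2 counts was 0.463, 0.395 and 0.435 in HETStra8 mice and 0.473, 0.436 and 0.423 in KOStra8 mice. The means were 0.431 ± 0.0345 and 0.444 ± 0.0259 (SD, n = 3), with p = 0.6 in a two-sided exact permutation test. For Tnp1 to Tnp2 the ratio was 0.469, 0.483 and 0.546 in HETStra8 and 0.531, 0.513 and 0.489 in KOStra8, or 0.499 ± 0.0411 and 0.511 ± 0.0212 (SD, n = 3, exact permutation p = 0.7). The log2 difference in this ratio was 0.04, while the separate log2 fold changes with the offsets, 0.02 for Tnp1 and 0.09 for Tnp2, are in the opposite order. The sum of Prm1 and Prm2 over that of Tnp1 and Tnp2 was 1.45, 1.66 and 1.44 in HETStra8 and 1.43, 1.45 and 1.48 in KOStra8. HETStra8 mouse 2 stood apart with 1.66, and the other 5 mice lay between 1.43 and 1.48 (exact permutation p = 0.6). Adjusted over the 3 ratios, each p was 0.7, and 3 mice against 3 cannot give a p below 0.1.

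**Figure D4:**
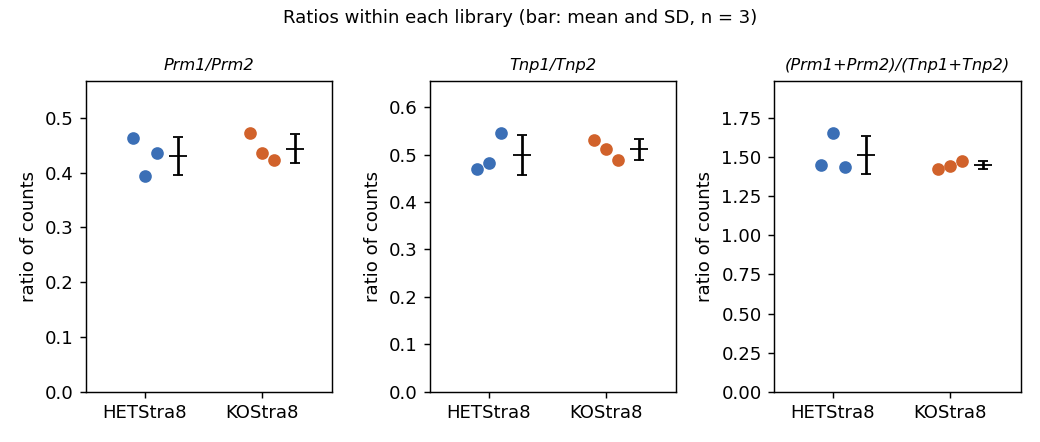
Ratio of counts within each library for Prm1 to Prm2, Tnp1 to Tnp2, and the sum of both protamines to the sum of both transition proteins, with the mean and SD of each genotype (n = 3) beside the points. Both genotypes cover overlapping ranges in all 3 panels, and the point at 1.66 in the right panel is HETStra8 mouse 2.

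Between mice the variation of the 7 abundant genes lay on both sides of the median of highly counted genes. The coefficient of variation over the 6 mice was 4.42% for Prm1, 7.53% for Prm2, 7.32% for Prm3, 6.63% for Tnp1, 6.31% for Tnp2, 7.75% for H1fnt and 9.23% for Hils1. The median was 7.46% over the 2433 tested genes with at least 100 CPM, a level that Prm3 did not reach on average. For Hist1h1t and Hist1h2ba the coefficients were 32.5% and 33.0%, where counting alone gives 13.5% and 16.6%.

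The genes did not all vary together across mice. Over the 6 libraries, Pearson's r of log2 CPM between pairs of the 7 abundant genes ran from -0.02 to 0.94 with a median of 0.57. Prm1 was most like Tnp2 among the 9 (r = 0.94), and H1fnt was most like Prm3 (r = 0.94), with 0.86 for Prm1 and 0.83 for Hils1. Prm2 had r = 0.57 with Tnp2 and 0.56 with Prm1, its neighbour in the cluster. Tnp1 and Hist1h1t were most like each other (r = 0.76), though Hist1h1t has few counts. Hist1h2ba had no r above 0.21. Among 10006 other genes of at least 10 CPM, the most similar were Ccdc12 for Prm1 (r = 0.992), 1700030C14Rik for Prm2 (0.997), Rpl36 for Prm3 (0.991), Lypla2 for Tnp1 (0.993) and 1700020N01Rik for Tnp2 (0.998). For the histone genes they were Tnks1bp1 for H1fnt (0.994), 1700056E22Rik for Hils1 (0.995), Sesn1 for Hist1h1t (0.975) and Lpin3 for Hist1h2ba (0.979). From 17 (for Tnp2) to 3080 (for Hist1h2ba) of the 10006 genes had a higher r than the most similar of the 9. With 6 points and 10006 genes searched these correlations are a description only, and the points share their libraries, depth and GC trend.

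The genes that act around the transition were described in 3 lists, and no gene of them was called. Of 21 other histone variants and linker histones, 15 were tested, and 0 of 15 had an unadjusted p below 0.05 in either direction in edgeR, against 7.13% higher and 5.12% lower over all genes. With the GC and length offsets 0 were higher and 1 was lower. The median log2 fold change was -0.06, and -0.04 with the offsets. H2al2b was at 0 in every library. The smallest p-values of this list were those of H2al2a, a spermatid H2A variant, at 85.4 ± 4.70 CPM in HETStra8 and 76.5 ± 7.18 CPM in KOStra8 (log2 fold change -0.16, adjusted p = 0.484, edgeR), of H2afb1 (0.86, adjusted p = 0.517, 9 to 42 counts) and of H2afx, the variant phosphorylated at DNA breaks (-0.18, adjusted p = 0.525). Copies of the H2al2 and H2afb families are similar in sequence, so their counts are uncertain.

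Among 25 genes of histone exchange and protamine handling, 5 were higher and 1 was lower in KOStra8 at an unadjusted p below 0.05, shares of the list to be read against the 7.13% and 5.12% of all genes given above. With the GC and length offsets the numbers were 1 higher and 2 lower, and the list's median log2 fold change was -0.06, or 0.02 with the offsets. Top2b, a topoisomerase that relieves strain in DNA, had the largest value, 33.6 ± 7.51 CPM in HETStra8 and 48.7 ± 3.35 CPM in KOStra8 (SD, n = 3), which is 0.53 on the log2 scale (SE 0.136, adjusted p = 0.181, edgeR) and 0.30 with the offsets. Nasp, a histone chaperone, had 0.36 (adjusted p = 0.231) and Hspa4l, a chaperone of the HSP110 family, 0.20 (adjusted p = 0.343), and with the offsets 0.12 and -0.13. Hspa4l, 1 of the 5 higher genes, was thus 1 of the 2 lower genes with the offsets (unadjusted p = 0.0309, adjusted p = 0.585, edgeR). The other 2 genes higher without the offsets, named after their values were seen, were the bromodomain reader of acetylated histones Brdt (0.23, adjusted p = 0.355) and the proteasome activator Psme4 (0.17, adjusted p = 0.382). The 1 lower gene without the offsets, also named afterwards, was the acetyltransferase Kat8 (-0.16, adjusted p = 0.403). None of these passed the adjusted test.

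Of 18 genes controlling transcription and storage of spermatid mRNAs, 0 were higher and 2 were lower at an unadjusted p below 0.05, beside 7.13% and 5.12% of all genes, and the median log2 fold change was -0.02 (-0.03 with the offsets, with 1 higher and 2 lower). Kif17, a kinesin that carries the CREM coactivator ACT out of the nucleus, had 579, 573 and 559 CPM in HETStra8 mice and 473, 481 and 455 CPM in KOStra8 mice. The groups did not overlap, as for 17.8% of all genes, and the log2 fold change was -0.28 (SE 0.0629, adjusted p = 0.126, edgeR), or -0.13 with the GC and length offsets. Ybx2, the Y-box protein that binds stored mRNAs in germ cells, had -0.15 (adjusted p = 0.349, edgeR) and -0.0027 with the offsets. Tarbp2, which binds protamine mRNA, had -0.18 (adjusted p = 0.409, edgeR) and -0.06 with the offsets.

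Markers of the cell types that could carry these transcripts are given for comparison, as the range of each list's summed CPM in HETStra8 and then in KOStra8. Elongating spermatid markers summed to 8174 to 8616 and 7621 to 8089, with 1 of 8 genes higher (Cabs1) and 3 lower (Gapdhs, Oaz3 and Tsks) at an unadjusted p below 0.05, where 7.13% of all genes were higher and 5.12% lower. Their median log2 fold change was -0.11, and -0.05 with the GC and length offsets. With the offsets Oaz3 moved away from 0, from -0.17 to -0.33 (adjusted p = 0.0543, edgeR). Gapdhs, Tsks and Cabs1 moved toward 0, to -0.09, -0.0084 and 0.08. Round spermatid markers summed to 1453 to 1558 and 1332 to 1497, with 1 of 8 lower (Actl7b). Sums were 1014 to 1167 and 1088 to 1123 for pachytene spermatocytes (1 of 6 higher, Mybl1), 148 to 204 and 218 to 238 for leptotene and zygotene spermatocytes (2 of 5 higher, Meioc and Rad51ap2, the former with most of the sum), and 113 to 122 and 107 to 115 for spermatogonia (0 of 8). The median log2 fold change of the leptotene and zygotene list was 0.05, and -0.11 with the offsets. Somatic markers summed to 217 to 236 and 202 to 211 for Sertoli cells (1 of 6 lower, Rhox5) and to 506 to 755 and 427 to 547 for Leydig cells (1 of 7 lower, Star). They summed to 91.1 to 127 and 93.3 to 107 for peritubular myoid cells (1 of 4 lower, Des) and to 59.5 to 67.8 and 53.2 to 75.1 for macrophages (1 of 5 lower, Cd68). Epididymis markers reached at most 13.1 and 6.27, with 1 of 5 genes passing the count filter and Lcn8 at 0 in every library, and blood markers 31.3 and 21.7 (0 of 3). With the offsets, 1 gene had an unadjusted p below 0.05 toward lower levels in each of the elongating spermatid, Sertoli and Leydig lists, 1 toward higher levels in the leptotene and zygotene list, and 0 in the others. Markers were thus present for each testis cell type, and the part of shifts in cell make-up in the values of the 9 genes was not tested. The genes named here were picked out after their values were seen, and none was called.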

How the data were processed

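Testis poly(A)+ RNA of 6 mice was sequenced as paired-end directional libraries. The authors deposited, per mouse, raw counts of reads on 55536 Ensembl genes, with no normalization. The submitters' processing notes name FastQC, Trimmomatic, STAR 2.7.1a, Picard 2.20.4, StringTie 2.0.4, featureCounts 1.6.0 and HTSeq; which of them counted, and with what strand setting, is not given in the sources used here. Identifiers, positions (GRCm38), GC content and lengths came from GENCODE mouse release 21. Every column of the count tables belonged to a sample.

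The fit used edgeR 4.0.16 (R 4.3.3) on all genes passing filterByExpr, with TMM factors, a robust quasi-likelihood dispersion and genotype as the only term. Library totals of 28875108 to 36526695 left the 7 abundant genes with at least 2726 counts per mouse, and Hist1h1t and Hist1h2ba with at most 81. Mice of a group are the replicates. Log2 CPM used a prior count of 2. Ratios were compared with exact permutation tests, and shares without a test. GC and length offsets came from loess curves per library (span 0.3, genes above a log2 CPM of 2). The other alternatives were DESeq2's size factors, library totals, no filter, a minimum of 10 counts in each library, the mouse number as a block, DESeq2 1.42.0, limma-voom (limma 3.58.1), other cutoffs, mitochondrial genes left out of the share's denominator, and leaving out each mouse. Intervals are 95% intervals from the edgeR fit. Fits were tested on simulated data.

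By rule, the genes named were the 9 genes, Sel1l, the 3 genes with the smallest p per pathway list, and for each of the 9 the most similar other member and the most similar other gene of at least 10 CPM. Overlapping genes, other histone genes given for their level, and list genes with an unadjusted p below 0.05 were named outside this rule, after their values were seen. The genes and lists were chosen with earlier results of these data known.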

Additional observations from a re-analysis of the deposited data

How the results depend on the processing

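The number of genes called stayed at 0 of 9 under all 15 other fits and under cutoffs of an adjusted p of 0.05 or 0.01 at any fold, although DESeq2 gave no adjusted p for Hist1h1t and Hist1h2ba. Of 135 recomputed log2 fold changes, 22 had the opposite sign and 0 passed the threshold, with adjusted p between 0.367 and 1.00. With library totals Tnp2 was at 0.0052. With the GC and length offsets the values were 0.0359 for Prm1, 0.0203 for Prm2, 0.0884 for Tnp2 and 0.0241 for Hist1h1t.

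Leaving out 1 mouse at a time, which gave 0 or 1 of the 9 genes at an unadjusted p below 0.05 (H1fnt, without KOStra8 mouse 2), moved the log2 fold change between -0.0587 and 0.0203 for Prm1, -0.11 and 0.0216 for Prm2, -0.18 and -0.0647 for Prm3, -0.0307 and 0.0985 for Tnp1, -0.0456 and 0.0678 for Tnp2, -0.19 and -0.0830 for H1fnt, -0.19 and -0.0247 for Hils1, -0.30 and 0.36 for Hist1h1t, and -0.40 and 0.14 for Hist1h2ba. The log2 difference in ratio lay between -0.0178 and 0.0977 for Prm1 to Prm2, -0.0080 and 0.10 for Tnp1 to Tnp2, and -0.0973 and 0.0042 for protamines to transition proteins. The difference in summed share lay between -0.0554 and 0.0224 percentage points. In the lists, the exchange genes at an unadjusted p below 0.05 numbered 2 to 6 higher and 0 to 3 lower, the transcription and storage genes 0 to 3 and 1 to 4, and the histone variants 0 to 1 and 0 to 2. The list counts with offsets or without a mouse were chosen after seeing the data. Why values moved was not tested.

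The labels number the mice 1 to 3 in both groups, but same-numbered mice did not deviate together (correlations -0.060, -0.052 and 0.108 over 21465 genes), so the numbers were not taken as pairs. Which mice share a litter is not given in the sources used here, and no fit included litter. With the replicate block, 0 of 9 genes were called and 0 had an unadjusted p below 0.05, and Hist1h1t was at 0.00023. The replicate block with offsets gave 0.0354 for Prm1, 0.0194 for Prm2, 0.0858 for Tnp2 and 0.0511 for Hist1h1t. At 15 to 81 counts per library, Hist1h1t and Hist1h2ba had a counting error of 13.5% and 16.6% within a spread between mice of 32.5% and 33.0%.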
